A study of Mus musculus with 20 samples.

Results

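The 9 genes described here make, move or store glucose in the liver, or control those steps. They are Pck1, G6pc, Fbp1, Ppargc1a, Slc2a2, Gys2, Pygl, Pklr and Khk. They were chosen by name for their function, with earlier results of these data known, and each was found in the table of counts by its Ensembl identifier through the GENCODE M21 annotation. All 9 of the 21780 genes in the table were also among the 15522 genes tested. The libraries were made from polyadenylated RNA of the livers of male C57BL/6 mice, 5 mice in each of 4 groups. Every mouse ate a high fat diet (HFD) with 42% of its energy from fat from 8 weeks of age, and a single gavage was given at 10 weeks of age. HFD control mice received corn oil. HFD + Aroclor mice received Aroclor 1260 at 20 mg/kg, a commercial mixture of polychlorinated biphenyls (PCBs) that is mostly not dioxin-like. HFD + PCB 126 mice received PCB 126 at 20 µg/kg, a dioxin-like congener that activates the aryl hydrocarbon receptor (AhR). HFD + Aroclor + PCB 126 mice received both and are called the combined exposure here. The labels give 12 weeks of treatment, whereas the methods of the study give 12 weeks of diet with the last 10 weeks after the gavage, and the mice were fasted for about 6 h before the livers were taken. The fast applied to all 4 groups, and no group on a control diet was among the libraries, so no comparison here concerns the diet.

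In a fasted liver, glucose leaves the hepatocyte through the breakdown of glycogen and through gluconeogenesis from lactate, glycerol and amino acids. Glucagon, acting through cyclic AMP and the factor CREB, and glucocorticoids raise transcription of the gluconeogenic enzymes, and insulin lowers it through the FOXO factors. The liver is also the main site where dietary fructose is trapped and passed into glycolysis and fat synthesis. Dioxin-like compounds that bind AhR are known to lower Pck1 and G6pc in rodent liver at high doses.

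The libraries held 21836506 to 36854887 counts each, so the least expressed of the 9 genes, Ppargc1a, still had at least 104 counts in every library. Cyp1a2, 1 of 5 AhR targets read as a check of the exposures, stood at 387 ± 99.4 CPM (counts scaled to library size; mean ± SD, n = 5) in HFD control, 385 ± 76.2 with Aroclor, 1590 ± 606 with PCB 126 and 775 ± 186 with the combined exposure. It passed the test against HFD control with PCB 126 (log2FC 2.04, adjusted p = 0.0003) and with the combined exposure (log2FC 1.00, adjusted p = 0.0033). Cyp1a1 passed with PCB 126 (4.09 to 314 CPM against 0.219 to 0.940 CPM in HFD control, adjusted p = 0.0095) but not with the combined exposure (0.792 to 2.62 CPM, adjusted p = 0.502), and Cyp1b1, Tiparp and Ahrr passed against HFD control in no group. Hepatocyte markers summed to 68885 to 99768 CPM in the 20 libraries, and 4 tested markers of pancreatic acinar cells were each under 1 CPM in every library. In the combined exposure against HFD control, 11 of 43 markers of 9 cell types passed the test, beside 32.8% of all genes. They were 4 of 5 stellate cell markers (3 higher and 1 lower), 3 of 5 hepatocyte markers (all lower), and 1 each of Kupffer cells (Adgre1, higher), leukocytes (Ptprc, higher), endothelial cells (Stab2, lower) and adipocytes (Cidec, lower). After the correction for GC content described next, 2 of the 43 passed (9.38% of all genes), the hepatocyte marker Ttr and Stab2, both lower. The part of cell composition in the results was not tested. In whole liver, fewer cells of a type and less RNA per cell cannot be told apart.

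One property of the libraries moved with the groups and touches several of the 9 genes. For each library, log2 CPM relative to the mean over libraries was set against the share of G and C bases in the transcripts. Genes of known GC content with a mean of at least 1 CPM were used. The slope was 0.244 ± 0.179 log2 units per 10 percentage points of GC in HFD control, 0.00872 ± 0.0864 with Aroclor, 0.112 ± 0.2004 with PCB 126 and -0.365 ± 0.196 with the combined exposure (mean ± SD, n = 5). The slopes of HFD control, -0.00203 to 0.470, did not overlap those of the combined exposure, -0.626 to -0.121. Transcripts of the 9 genes ranged from 43.4% GC for Slc2a2 and 45.5% for Ppargc1a, over 47.6% for Gys2, 47.7% for G6pc, 48.7% for Pygl, 52.3% for Fbp1, 53.6% for Pck1 and 55.0% for Pklr, to 58.5% for Khk. Each comparison below was therefore also fitted with a correction for GC content, and both values are given where they differ in a call. The correction removes any difference that follows GC content across genes, of whatever origin.

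**Figure D1:**
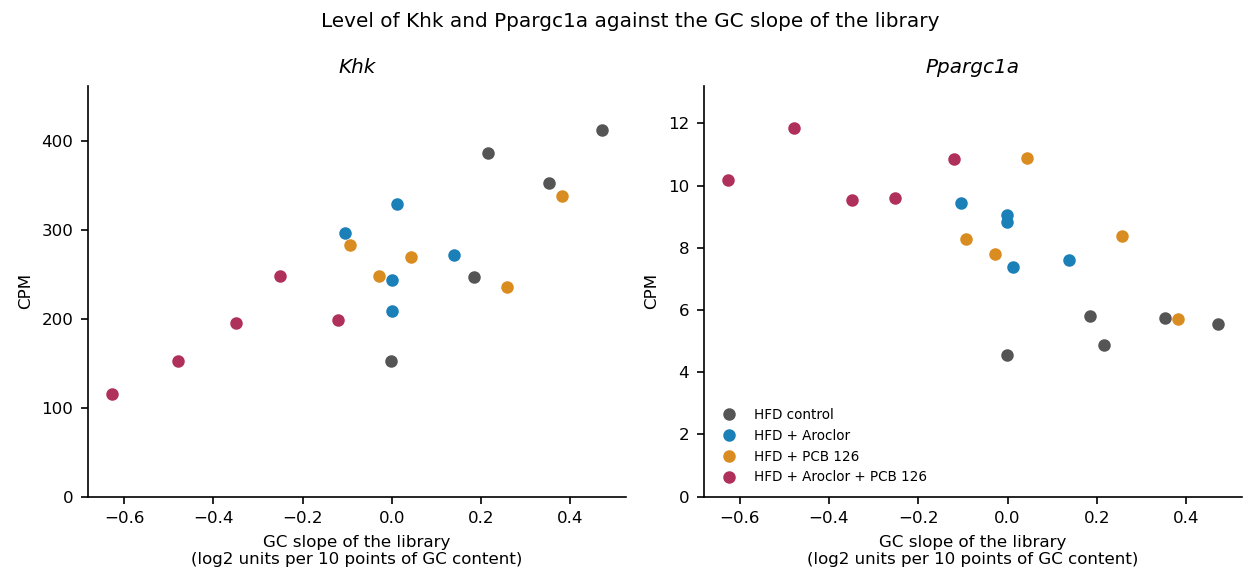
CPM of Khk and of Ppargc1a in each of the 20 libraries, coloured by group, against the GC slope of the library (log2 units per 10 percentage points of GC). On the slope axis, the 5 libraries of the combined exposure lie between -0.626 and -0.121, below all 5 of HFD control.

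To compare the genes with each other, CPM was divided by the length of the exons in kilobases. On this scale in HFD control the level was 756 ± 217 for Pck1, the cytosolic phosphoenolpyruvate carboxykinase that commits oxaloacetate to gluconeogenesis, and 566 ± 35 for Fbp1, the fructose-1,6-bisphosphatase of the same pathway. It was 291 ± 138 for G6pc, the catalytic subunit of glucose-6-phosphatase that releases free glucose, 172 ± 60.3 for Khk, the ketohexokinase that phosphorylates fructose, and 133 ± 19.4 for Gys2, the liver glycogen synthase. Lower levels were found for Pygl, the liver glycogen phosphorylase, at 55.1 ± 6.67, for Slc2a2, the GLUT2 glucose transporter, at 42.6 ± 8.37, and for Pklr, the liver pyruvate kinase, at 37.9 ± 15.2. Ppargc1a, the coactivator PGC-1α that drives the gluconeogenic genes together with other factors, was lowest at 0.805 ± 0.0842. The mean ± 1 SD ranges of neighbours in this order overlapped for Pck1 and Fbp1, for G6pc and Khk, and for Khk and Gys2. They also overlapped for Pygl and Slc2a2, and for Slc2a2 and Pklr. All genes were measured in the same mice, so this overlap does not show whether the order of a pair held within each mouse. Pklr overlaps Hcn3 on the opposite strand, and whether the counting used strand is not given in the sources used here. None of the other 8 genes overlaps a gene in the table.

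**Figure D2:**
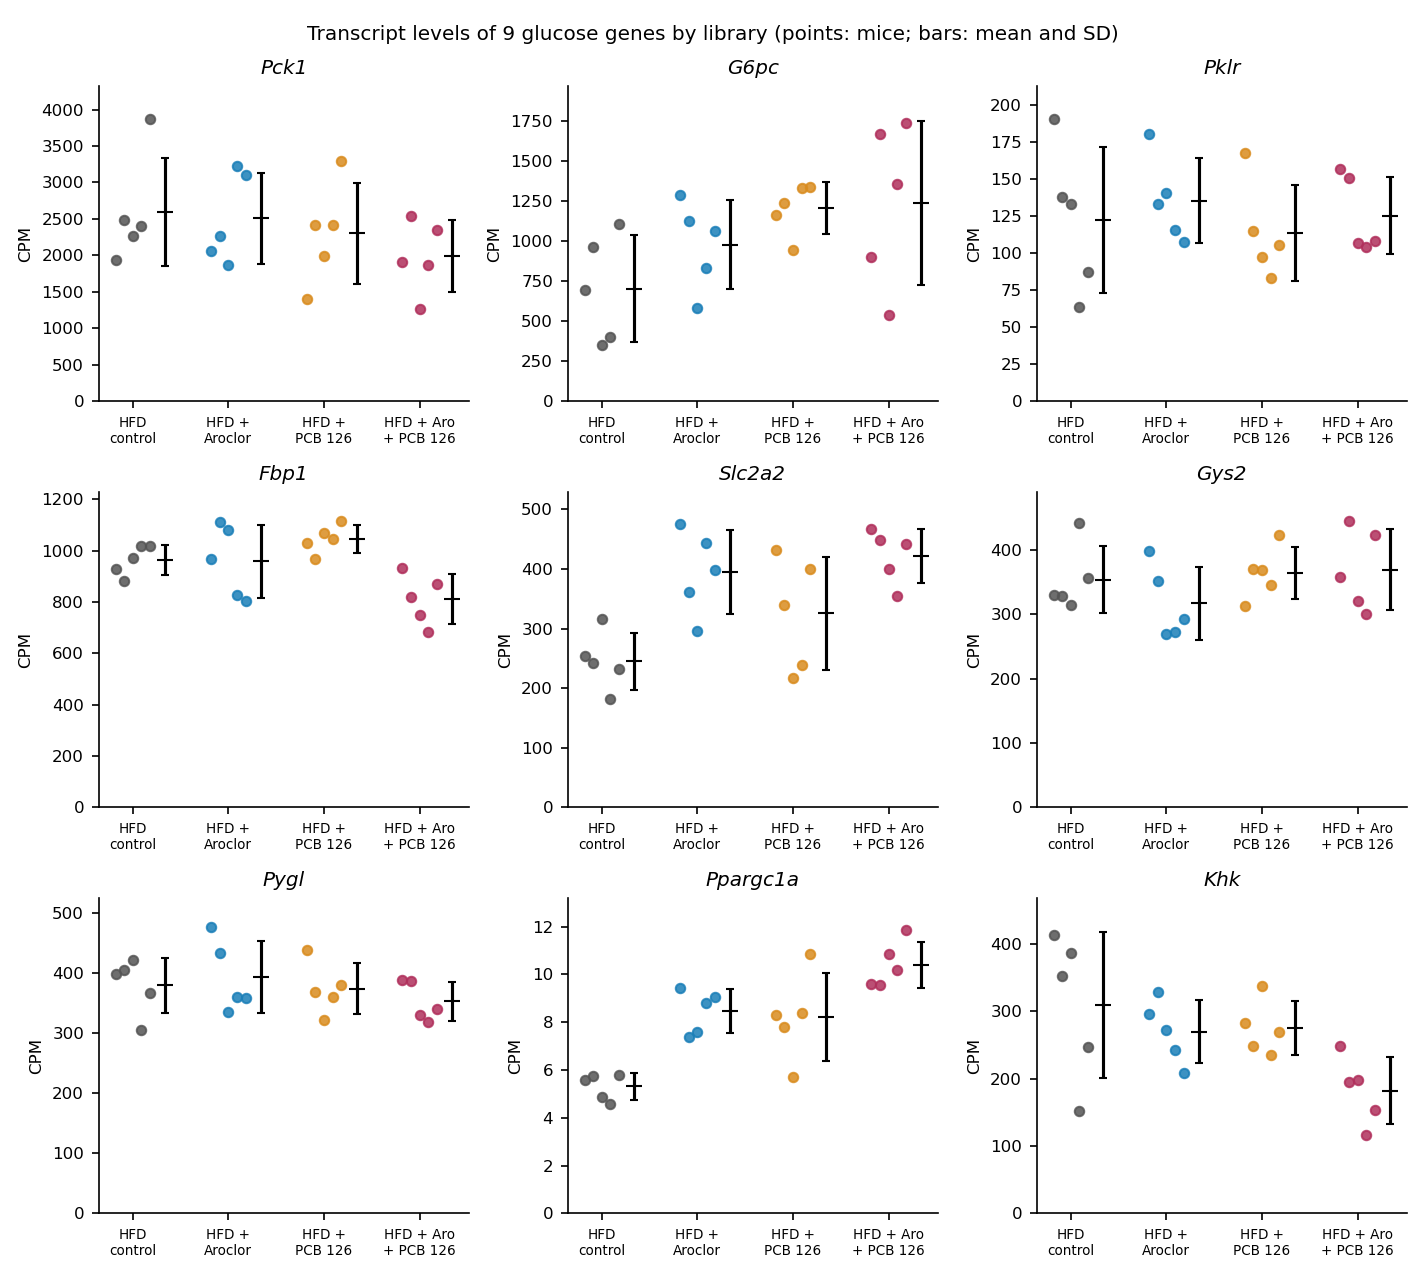
CPM of the 9 genes in each of the 20 libraries by group, with the group mean and SD (n = 5 mice); each panel has its own linear axis from 0. Ppargc1a of all 5 combined exposure mice (9.54 to 11.9 CPM) lies above all HFD control mice (4.56 to 5.80 CPM), whereas Pck1, Pklr, Gys2 and Pygl overlap between all groups.

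Promoter sequences show what surrounds the start sites of the genes the comparisons turn on. RefSeq promoters of the GRCm38.p6 assembly were matched for 8 of the 9 genes, and Gys2 had none in the table used. Printed below, 5′ to 3′ on the strand of the gene, are the 250 bases before the RefSeq start of the 4 genes that passed a test in the combined exposure against HFD control, Ppargc1a (chr5:51567726-51567975, minus strand), Slc2a2 (chr3:28697653-28697902, plus strand), G6pc (chr11:101367466-101367715, plus strand) and Khk (chr5:30921309-30921558, plus strand), and of Pck1 (chr2:173152823-173153072, plus strand), the gene with the best known cyclic AMP response. Capitals mark matches to the motifs searched on both strands: GCGTG, the core of the AhR site, TGACG, the core of the CREB site, GTAAACA, a FOXO site, and CACGTG, an E box bound by carbohydrate response factors among others.
Ppargc1a: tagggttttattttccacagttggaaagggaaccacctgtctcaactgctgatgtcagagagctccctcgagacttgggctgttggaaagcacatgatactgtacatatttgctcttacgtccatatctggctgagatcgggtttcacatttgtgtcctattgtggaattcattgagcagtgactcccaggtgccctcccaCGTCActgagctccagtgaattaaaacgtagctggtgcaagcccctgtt
Slc2a2: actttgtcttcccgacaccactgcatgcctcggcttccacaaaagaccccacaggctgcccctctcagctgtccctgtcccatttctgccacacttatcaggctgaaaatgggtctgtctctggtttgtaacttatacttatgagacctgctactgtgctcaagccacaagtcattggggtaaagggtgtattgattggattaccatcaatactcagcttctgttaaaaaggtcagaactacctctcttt
G6pc: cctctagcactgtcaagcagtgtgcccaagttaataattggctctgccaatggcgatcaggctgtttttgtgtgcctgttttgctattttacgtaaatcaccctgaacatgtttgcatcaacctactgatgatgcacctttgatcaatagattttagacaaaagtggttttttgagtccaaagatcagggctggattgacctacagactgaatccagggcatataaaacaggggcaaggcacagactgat
Khk: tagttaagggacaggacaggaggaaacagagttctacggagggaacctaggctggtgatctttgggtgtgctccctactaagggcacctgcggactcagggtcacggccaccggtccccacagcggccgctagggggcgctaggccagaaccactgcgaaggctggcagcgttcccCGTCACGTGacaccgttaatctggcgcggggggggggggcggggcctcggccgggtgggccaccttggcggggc
Pck1: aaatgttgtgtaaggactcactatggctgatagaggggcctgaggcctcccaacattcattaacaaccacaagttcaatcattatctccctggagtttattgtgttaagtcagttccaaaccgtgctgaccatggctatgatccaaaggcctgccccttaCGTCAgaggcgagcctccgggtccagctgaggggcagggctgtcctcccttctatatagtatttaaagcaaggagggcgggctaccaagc
The CREB core was found in the windows of 4 of the 8 genes, Pck1, Ppargc1a, Khk and Pygl, and in 17.8% of the 32851 mouse promoters of the same length. In Pck1 it lay 90 bases and in Ppargc1a 49 bases before the start. In Khk the CREB core overlapped an E box, the only E box among the 8 genes, a motif present in 6.02% of all promoters. The AhR core was found in Pygl alone, and in 28.2% of all promoters. The FOXO letters GTAAACA, present in 3.17% of all promoters, were in none of these windows. Other forms of the FOXO and CREB sites were not searched, so their absence is not shown for any gene. A match of letters is not evidence of binding, and no binding was measured in these libraries.

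Aroclor alone was first compared with HFD control. None of the 9 genes passed edgeR's quasi-likelihood test, with p-values adjusted by Benjamini-Hochberg over every gene tested, and neither did any other gene (0% of 15522). At an unadjusted p under 0.05 there were 2 of the 9, Ppargc1a and Slc2a2, beside 17.2% of all genes, and DESeq2 called both. In the HFD control mice (replicates 1 to 5) Ppargc1a stood at 5.56, 5.73, 4.88, 4.56 and 5.80 CPM, and in the Aroclor mice at 9.44, 7.38, 7.60, 8.82 and 9.04 CPM. The groups did not overlap, which was true of 1 of the 9 genes and of 2.94% of all genes. Its log2FC was 0.67 ± 0.14 (SE), with an adjusted p of 0.184 in edgeR and 0.0088 in DESeq2. It was the one gene of the 9 without overlap after GC correction too (1.8% of all genes), with a log2FC of 0.53 and an adjusted p of 0.233. The HFD control mice had 254, 242, 316, 182 and 232 CPM of Slc2a2, and the Aroclor mice had 475, 361, 296, 444 and 398 CPM. Replicate 3 with Aroclor lay below replicate 3 of HFD control, the only overlap between these groups. The log2FC of Slc2a2 was 0.69 ± 0.18, with adjusted p-values of 0.184 in edgeR and 0.0393 in DESeq2. In the remaining 7 genes, log2FC ran from -0.20 for Khk to 0.48 for G6pc, with 95% intervals that included 0.

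PCB 126 alone, the exposure with the highest Cyp1a2, likewise gave no call among the 9 genes in edgeR, where 0.116% of all genes passed. At an unadjusted p under 0.05 there were 3 of the 9 (14.7% of all genes), Ppargc1a, G6pc and Slc2a2, all with a higher mean than in HFD control, and DESeq2 called Ppargc1a alone. Ppargc1a was at 8.29, 7.80, 5.69, 8.38 and 10.9 CPM. Only replicate 3 fell within the range of HFD control. The log2FC was 0.63 ± 0.14, with an adjusted p of 0.0548 in edgeR and 0.0026 in DESeq2. Without PCB 126 replicate 3 it passed in edgeR (log2FC 0.73, adjusted p = 0.0147). The groups did not overlap after GC correction, which held for 1 of the 9 genes and 2.25% of all genes, with an adjusted p of 0.0656. The HFD control mice had 693, 964, 352, 403 and 1105 CPM of G6pc, and the PCB 126 mice 1166, 1237, 944, 1334 and 1339 CPM. The HFD control mice spread over a coefficient of variation of 47.3%, those with PCB 126 over 13.5%, and PCB 126 replicate 3 lay within the HFD control range. The log2FC of G6pc was 0.78 ± 0.31 with an adjusted p of 0.269, and 0.74 with 0.264 after GC correction. Pck1, by contrast, stood at 1938, 2484, 2270, 2404 and 3872 CPM in the HFD control mice, while the PCB 126 mice had 1398, 2411, 1997, 2416 and 3292 CPM, a log2FC of -0.17 with a 95% interval of -0.65 to 0.31. Both single exposures were compared with the same HFD control mice, so their values for Ppargc1a, Slc2a2 and G6pc are not independent of each other.

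With the combined exposure, 4 of the 9 genes passed edgeR's test against HFD control, beside 32.8% of all genes. G6pc, Slc2a2 and Ppargc1a were higher (3 of 9, beside 15.8% of all genes) and Khk was lower (1 of 9, beside 17% of all genes). After GC correction 1 of the 9 passed, Ppargc1a, where 9.38% of all genes did. The share of the 9 genes is thus near that of the whole table under either fit, so these counts do not set the 9 genes apart. The values of each gene follow as a description.

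Ppargc1a rose most steadily. Its level with the combined exposure was 9.59, 9.54, 10.8, 10.2 and 11.9 CPM, or 10.4 ± 0.969 against 5.31 ± 0.555 in HFD control (mean ± SD, n = 5). All 5 mice lay above all 5 HFD control mice, a separation shared with Slc2a2 and with 18.8% of all genes. The log2FC was 0.97 ± 0.14 with an adjusted p of 0.0005. It was 0.68 ± 0.13 after GC correction with an adjusted p of 0.0048, and the groups again did not overlap (1 of the 9 genes and 8.74% of all genes). Leaving out each mouse in turn gave 0.92 to 1.00, past the threshold in 10 of 10 fits. Ppargc1a with the combined exposure was also above every Aroclor mouse (7.38 to 9.44 CPM), a separation in either direction that held for 6.76% of all genes, but not in the test of that difference (log2FC 0.30, adjusted p = 0.184).

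Slc2a2 was at 466.2, 448, 400, 354 and 442 CPM with the combined exposure, and no mouse reached down to the highest HFD control mouse at 316 CPM. The log2FC was 0.78 ± 0.18 with an adjusted p of 0.0032, past the threshold in 10 of 10 fits that left out 1 mouse. After GC correction the log2FC was 0.40 ± 0.16 with an adjusted p of 0.129. Slc2a2 has the lowest GC content of the 9 genes. Its level in the combined exposure, 422 ± 45.1 CPM, was close to that with Aroclor alone, 395 ± 70.4 CPM, and the difference between the combined exposure and Aroclor had a 95% interval of -0.28 to 0.47 on the log2 scale.

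G6pc was at 901, 1666, 541, 1358 and 1738 CPM with the combined exposure. Replicates 1 and 3 lay within the HFD control range of 352 to 1105 CPM and the other 3 above it. The log2FC of 0.82 ± 0.31 had an adjusted p of 0.0497, at the edge of the threshold. It passed in 4 of the 10 fits without 1 mouse, with a log2FC of 0.65 without HFD control replicate 3 and 1.04 without HFD control replicate 5, and not after GC correction (log2FC 0.63, adjusted p = 0.207). Replicate 3 had the lowest G6pc in 4 of 4 groups, at 352, 582, 944 and 541 CPM, and the sources used here do not say whether mice of the same number shared a cage or a run.

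Khk was the member that fell. The HFD control mice had 413, 352, 386, 152 and 247 CPM, and the combined exposure mice had 248, 195, 198, 116 and 153 CPM. The groups overlapped through HFD control replicates 4 and 5. The log2FC was -0.77 ± 0.22 with an adjusted p of 0.0125, past the threshold in 10 of 10 fits without 1 mouse, but at an adjusted p of 0.0511 when only these 2 groups entered the fit. After GC correction it was -0.20 ± 0.18, with an adjusted p of 0.562. Khk has the highest GC content of the 9 genes, and its log2 CPM followed the GC slope of the library also within the groups (Pearson r = 0.65, permutation p = 0.0049, adjusted over the 9 genes 0.044, Spearman rho = 0.59 with an adjusted permutation p of 0.111, n = 20 libraries, r = 0.65 without the 2 libraries farthest from the median slope). For the other 8 genes r lay between -0.30 and 0.20. This relation was computed after the slopes had been seen. Each slope was fitted over all genes used for it, so genes of high GC content tend to follow it by construction. How many other genes followed it as closely was not examined. The permutation test therefore does not bear on why Khk was lower, which was not tested.

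The gluconeogenic enzymes Pck1 and Fbp1, unlike G6pc, did not pass edgeR's test in this comparison. Pck1 was at 1913, 2546, 1269, 1865 and 2344 CPM with the combined exposure, within or below the HFD control range. Its log2FC was -0.38, with a 95% interval of -0.87 to 0.10 and an adjusted p of 0.21 (-0.16 after GC correction, adjusted p = 0.759). Fbp1 stood at 927, 881, 972, 1017 and 1020 CPM in the HFD control mice against 933, 819, 751, 683 and 868 CPM with the combined exposure, where 4 of 5 mice lay below the lowest control. The log2FC of Fbp1 was -0.25 ± 0.10, with an adjusted p of 0.0695 in edgeR and 0.0297 in DESeq2, and -0.12 after GC correction (adjusted p = 0.491). Pyruvate kinase and the glycogen enzymes differed least: log2FC was 0.03 for Pklr, 0.06 for Gys2 and -0.10 for Pygl, with 95% intervals of -0.47 to 0.53, -0.22 to 0.35 and -0.35 to 0.14. Over the 4 groups, Pklr ranged from 63.8 to 191 CPM, Gys2 from 269 to 445 CPM and Pygl from 306 to 478 CPM, and HFD control held both the lowest and the highest Pklr mouse.

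**Figure D3:**
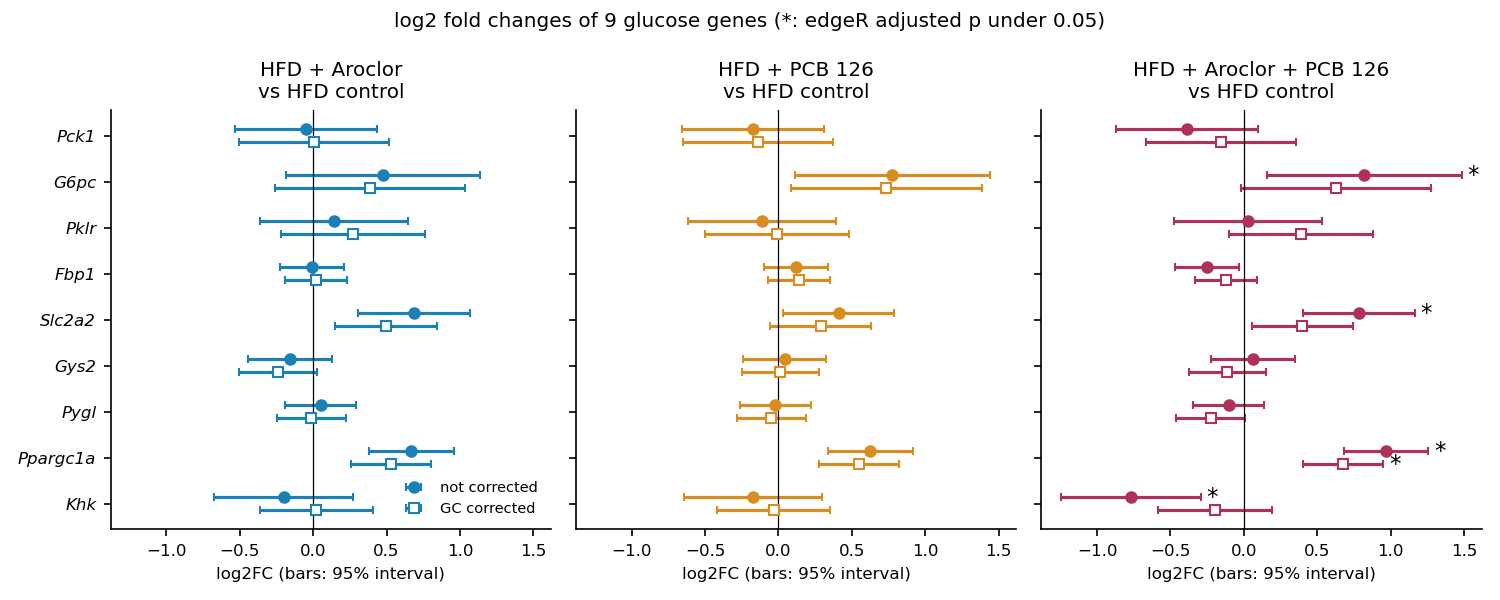
Log2FC with 95% intervals of the 9 genes in the 3 comparisons with HFD control, before and after GC correction. Ppargc1a stays to the right of 0 with the combined exposure in both fits (0.97 and 0.68), whereas the interval of Khk moves from below 0 (-0.77) to one that includes 0 (-0.20).

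The combined exposure was also set against each single exposure. Against Aroclor alone none of the 9 genes passed in edgeR (0.412% of all genes did) or in DESeq2, and 3 of 9 had an unadjusted p under 0.05, Khk, Fbp1 and Ppargc1a (23.4% of all genes). Khk had a log2FC of -0.57 ± 0.22 there, with an adjusted p of 0.142. Against PCB 126 alone, 1 of the 9 genes passed, Fbp1, beside 16.7% of all genes. Fbp1 was at 1031, 969, 1071, 1047 and 1116 CPM with PCB 126, above all 5 mice of the combined exposure, and it was the one gene of the 9 without overlap (9.9% of all genes). The log2FC was -0.37 ± 0.10 with an adjusted p of 0.0249, past the threshold in 6 of 10 fits without 1 mouse. After GC correction it was -0.27 with an adjusted p of 0.155, in a fit in which no gene of the table passed. Khk (log2FC -0.59) and Ppargc1a (log2FC 0.34) had adjusted p-values of 0.0689 and 0.0768 in edgeR and 0.0296 and 0.0451 in DESeq2.

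Whether the exposures together did more or less than the sum of their separate changes was tested as an interaction on the log2 scale. None of the 9 genes passed in edgeR or DESeq2, 0% of all genes passed in edgeR, and 1 of the 9 had an unadjusted p under 0.05, beside 11.9% of all genes (Fbp1, log2FC -0.36, 95% interval -0.67 to -0.05, adjusted p = 0.355). For Ppargc1a the interaction was -0.33 with an interval of -0.73 to 0.08, for Slc2a2 -0.31 (-0.85 to 0.22), for G6pc -0.43 (-1.37 to 0.50) and for Khk -0.39 (-1.06 to 0.27). These intervals are wide beside the changes themselves, and a departure from additivity of either sign was not shown.

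Mouse-to-mouse variation within the groups was shared by some of the genes. In 6 pairs, the log2 CPM was centred on each group mean and correlated over the 20 libraries, with permutation within groups and adjustment over the 6 pairs. Pklr and Khk, which both serve the glycolytic use of sugars, varied together (Pearson r = 0.77, permutation p = 0.00097, adjusted 0.0058, Spearman rho = 0.75, adjusted 0.011), also without the 2 libraries farthest from the median of Pklr (r = 0.60) and after GC correction (r = 0.82, adjusted permutation p = 0.00066). HFD control replicate 4 was the lowest of its group in both, at 63.8 CPM of Pklr and 152 CPM of Khk, and replicate 1 the highest of the group in Pklr, as it was in 4 of 4 groups. Libraries with the same number may therefore not be independent, whereas the permutations treat all 20 as such. Pck1 and G6pc varied together as well (r = 0.55, permutation p = 0.0152, adjusted 0.0368, rho = 0.53, r = 0.53 without the 2 farthest libraries). After GC correction their r was again 0.55, with an adjusted permutation p of 0.0517 and an r of 0.33 without the 2 farthest libraries. G6pc and Ppargc1a had an r of 0.42 (permutation p = 0.0184, adjusted 0.0368, rho = 0.53) and 0.33 after GC correction (adjusted permutation p = 0.227). The pairs Pck1 and Ppargc1a (r = 0.34), Gys2 and Pygl (r = 0.16) and Pck1 and Pklr (r = -0.41) did not pass, with adjusted permutation p-values of 0.263, 0.538 and 0.142.

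**Figure D4:**
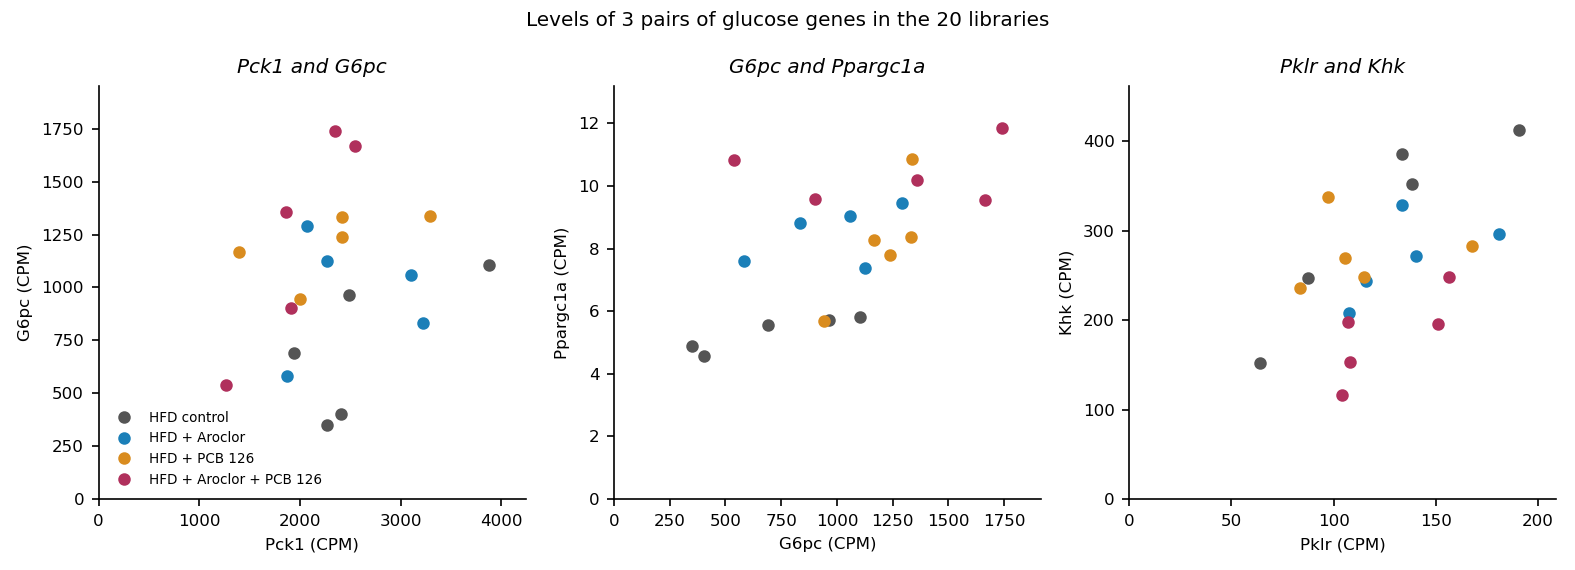
CPM of the genes of 3 pairs in each of the 20 libraries, coloured by group, on linear axes from 0. Within HFD control, the mouse with the lowest Pklr (63.8 CPM) also has the lowest Khk (152 CPM).

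Over the same 20 libraries, the genes whose log2 CPM followed each member most closely were searched among 8870 genes with a mean of at least 5 CPM, as a description that includes the differences between groups and in GC slope. Pck1 was nearest to Tat, tyrosine aminotransferase, a glucocorticoid and glucagon target (r = 0.82), and Mapkapk2 (r = 0.81). G6pc was nearest to Sik1, a kinase induced by cyclic AMP (r = 0.91), and Bhlhe40, a transcriptional repressor tied to the circadian clock (r = 0.83). Ppargc1a was nearest to Crebrf (r = 0.92) and Prox1 (r = 0.91), Slc2a2 to Aplp2 (r = 0.97) and Gnptab (r = 0.96), and Khk to Haao (r = 0.96) and Dhrs3 (r = 0.95). Pklr was nearest to Gstm6 (r = 0.89) and to Nsdhl, an enzyme of cholesterol synthesis (r = 0.87). Fbp1 had Serpinf2 (r = 0.84), Gys2 had Kdm1a (r = 0.83) and Slc27a2 (r = 0.82), and Pygl had Ces2e (r = 0.81) and Pigk (r = 0.77).

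The 9 genes sit among 98 further genes of glucose metabolism, all tested, in 7 lists by role. With Aroclor alone and with PCB 126 alone, none of the 98 passed in edgeR (0% and 0.116% of all genes did). At an unadjusted p under 0.05 there were 15 and 21 of the 98, beside 17.2% and 14.7% of all genes, and DESeq2 called 0 and 4. With the combined exposure 45 of 98 passed, beside 32.8% of all genes, with 17 higher and 28 lower (15.8% and 17% of all genes). After GC correction 15 passed, 10 higher and 5 lower, beside 9.38% of all genes. Of the 45, 12 also passed after correction, 11 of them in the same direction. The median log2FC of the 98 was -0.18 before and -0.00078 after correction, beside -0.00096 and -0.02 over all genes. Of the 22 genes of gluconeogenesis and the reversible glycolytic steps, 10 passed, 1 higher and 9 lower (32.8% of all genes passed, 15.8% higher and 17% lower), among them Sds, serine dehydratase (log2FC -0.84, adjusted p = 0.0156), and 2 passed after correction: Gpt2, the mitochondrial alanine aminotransferase, was higher (0.41 before and 0.61 after) and Ldha, lactate dehydrogenase, lower (-0.60 and -0.51). Of 20 genes of the hexokinase, phosphofructokinase and pyruvate steps, 5 passed, beside the same 32.8% of all genes, and none did after correction (3 at an unadjusted p under 0.05), beside 9.38%, with Pkm, the other pyruvate kinase gene beside Pklr, at -0.71 before and -0.38 after.

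Glycogen genes included the second largest change among those of the 98 that passed. Ppp1r3b, the liver subunit that directs protein phosphatase 1 to glycogen and thereby activates the synthase encoded by Gys2, ranged from 82.7 to 161 CPM in the HFD control mice and from 269 to 365 CPM with the combined exposure. The groups did not overlap, as in 18.8% of all genes. Its log2FC was 1.35 before and 1.19 after GC correction, with adjusted p-values of 0.0007 and 0.0036, while Gys2 itself was at 0.06 and -0.11. Of the 22 glycogen genes, 10 passed, 7 higher and 3 lower, and 4 after correction, beside 32.8% and 9.38% of all genes. Gbe1, the branching enzyme, had 0.91 before (adjusted p = 0.0023) and 0.51 after (adjusted p = 0.0693). Gaa, the lysosomal glucosidase, and Phkg2, the liver catalytic subunit of the kinase that activates Pygl, were lower in both fits, Gaa with -0.996 and -0.44 and Phkg2 with -0.63 and -0.40.

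Among 22 transcriptional regulators of glucose genes, 15 passed, 5 higher and 10 lower, beside 32.8% of all genes, and 5 after GC correction, all higher, beside 9.38%. Cry1, a clock repressor that restrains glucagon-driven gluconeogenesis, had the largest change among them: 3.21 to 6.03 CPM in HFD control against 10.7 to 15.6 CPM with the combined exposure, a log2FC of 1.45 before (adjusted p = 0.001) and 1.42 after correction (adjusted p = 0.0043). With PCB 126 alone Cry1 was at 5.83 to 12.3 CPM, a log2FC of 0.85 with an adjusted p of 0.158, and it was the one gene of the 98 to pass between the combined exposure and Aroclor (0.412% of all genes). Partners of the PGC-1α protein and of the hepatocyte factors passed before the correction only, Esrra at -0.96 and -0.41 and Foxa2 at -0.96 and -0.42. Nr3c1, the glucocorticoid receptor, was higher in both fits (0.71 and 0.39). Cebpa passed in both with opposite signs, -0.32 and 0.37, so its direction depends on the correction. Gcgr, the glucagon receptor, was lower (-0.90 and -0.38) and Insr, the insulin receptor, higher (0.62 and 0.35), and both passed in both fits. In the fructose and polyol list of 5 genes, 2 passed in both fits (32.8% of all genes passed before and 9.38% after correction), Tkfc, which works downstream of Khk, lower (-0.75 and -0.39) and Sord, sorbitol dehydrogenase, higher (0.43 in the first and 0.42 in the second), and of the 5 transporters other than Slc2a2, Slc2a8 passed before correction only (-0.87 and -0.19). Esrra, Sds, Tkfc and Phkg2 overlap other genes of the table, so their counts carry that uncertainty.

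**Figure D5:**
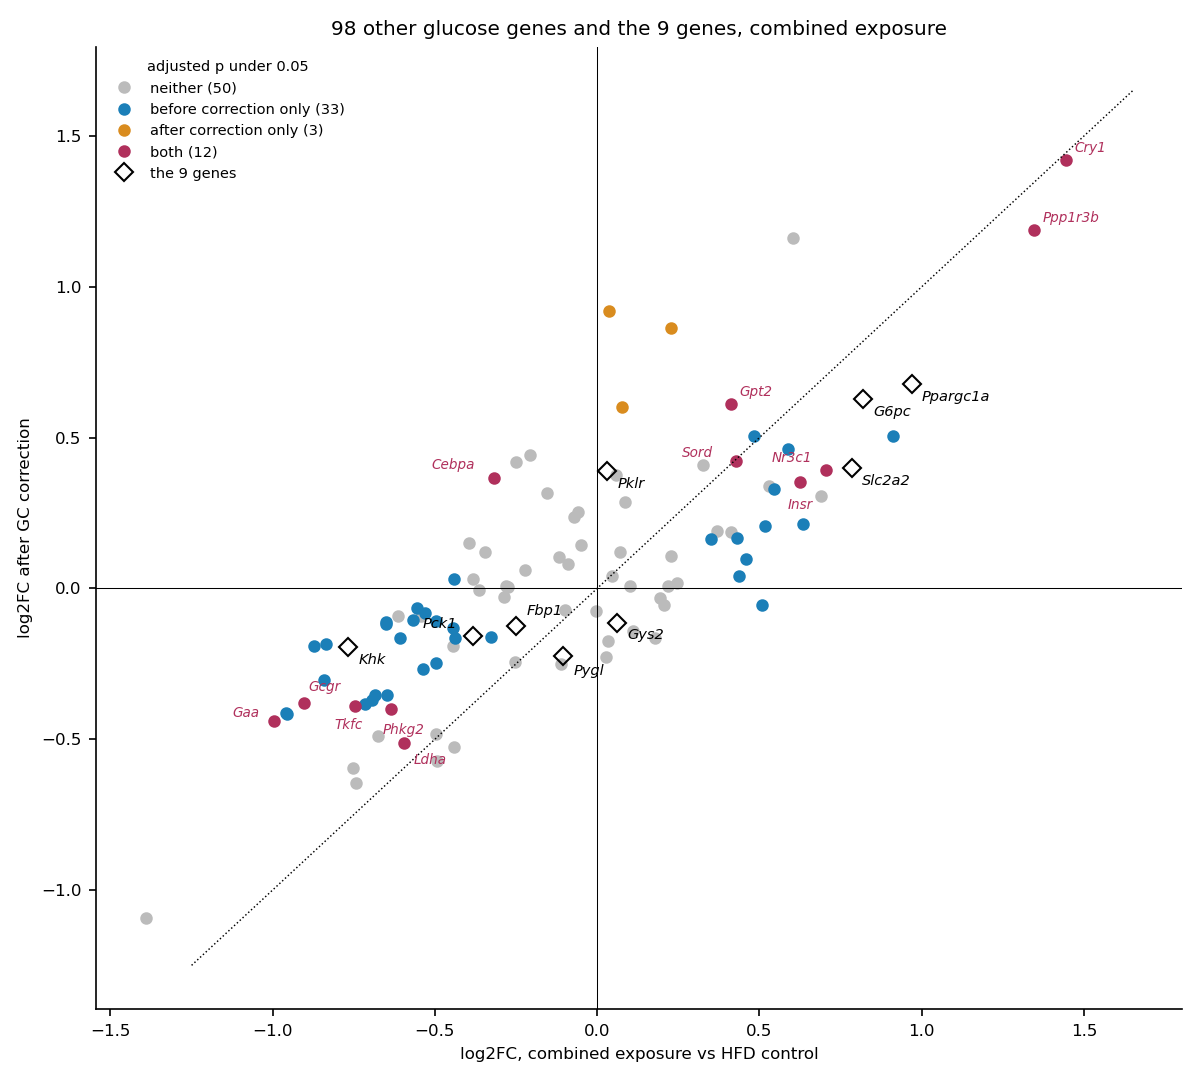
Log2FC of the combined exposure against HFD control before (horizontal axis) and after (vertical axis) GC correction for the 98 other glucose genes, coloured by the fit in which they passed, and for the 9 genes as open diamonds. The dotted line marks equal values; Cry1 and Ppp1r3b lie near it, whereas most genes that passed before correction lie nearer to 0 after it.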

How the data were processed

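Livers of 20 mice were measured by RNA-seq, and the deposited values are raw counts per Ensembl gene. For these counts the authors made stranded libraries of polyadenylated RNA, sequenced them in 2 runs and, per the labels, used FastQC 0.10.1, STAR 2.6 and HTSeq 0.10.0 on mm10 (GRCm38.p6). Which annotation release was counted, whether counting used strand and which run held each library are not given in the sources used here. Columns were assigned to mice by their labels. The library name of PCB 126 replicate 2 carries another number in 1 of its parts, and the title given to the sample was used. All 20 columns were used.

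The 15522 genes whose counts summed to 10 or more over the libraries were tested. TMM scaling and 1 model with 4 group coefficients (16 residual degrees of freedom) were run in edgeR 4.0.16 (R 4.3.3). Contrasts were tested by two-sided quasi-likelihood tests, p-values were adjusted by Benjamini-Hochberg over every gene tested, and an adjusted p under 0.05 was the threshold. CPM values use the TMM library sizes, and 95% intervals are the log2FC ± the t quantile at 16 degrees of freedom times its SE. For the GC correction, log2 CPM relative to the mean library was smoothed over transcript GC content (spline with 6 degrees of freedom, GENCODE M21, genes of at least 1 CPM) in each library, and the smooth entered the fit as an offset. GC content was known for 15516 tested genes. Alternatives were DESeq2 1.42.0, RLE normalization, no filter, the FPKM filter of the study's methods (8995 genes), the compared groups alone, GC with gene length, a replicate block, and leaving out each mouse. The scripts were tested on simulated counts in which 200 of 15522 genes changed between the combined exposure and HFD control. Without a GC slope in these counts, 5.52% of the calls of the uncorrected fit were false. With a GC slope added, 94.5% of its calls were false, and 5.17% of those of the corrected fit. The slope was added with the same GC contents that the correction uses, so its removal was built in. HFD control and both single exposures were given the same mean slope, unlike in the libraries. The shares also depend on the choice of 200 changed genes. They do not give the share of false calls in the measured counts. Correlations used 100000 permutations within groups (scipy 1.17.1, numpy 2.4.6), with a pseudocount of 0.5 CPM for log2 CPM.

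In all 40 pairs of libraries within a group the counts differed beyond sampling noise (chi-square divided by its degrees of freedom was at least 19.7), and none was counted as a duplicate. Standard errors include counting error and the spread between mice. Replicate numbers were not used as pairs.

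The members and the lists were chosen with earlier results of these data known. Of the other glucose genes, the rule names up to 12 by absolute log2FC with the combined exposure among those past the threshold, and those also past it after GC correction. For each member it names the 2 genes most like it. A few genes that these rules name are not reported here.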

Additional observations from a re-analysis of the deposited data

Results flagged for a closer look

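Pck1 in HFD control replicate 5, at 3872 CPM, stood apart from the other 4 mice of its group, which lay between 1938 and 2484 CPM. Its gap to the nearest mouse, as a share of the range of the group, was above the critical value of Dixon's test for 5 samples (0.71). Of 36 groups of values examined in this way (9 genes in 4 groups), 1 was marked, and chance marks about 1 in 20. Without this mouse the log2FC of Pck1 was 0.14 with Aroclor, 0.02 with PCB 126 and -0.19 with the combined exposure, and Pck1 passed the test in none of these. The same mouse had the highest G6pc of its group, 1105 CPM, and did not stand apart in the other 8 genes.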

How the results depend on the processing

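In the fits that used all mice, 412 log2FC values of the 9 genes kept their direction and their side of the threshold, 15 passed only in the alternative, 14 passed only in the fit reported above and 36 changed sign, none of them past the threshold in either fit. DESeq2 gave more calls. It called 2 of the 9 genes with Aroclor, 1 with PCB 126 and 3 between the combined exposure and PCB 126, 4 and 20 of the 98 glucose genes with PCB 126 and between the combined exposure and Aroclor, and 135 (Aroclor), 320 (PCB 126), 1343 (combined exposure against Aroclor) and 1 (interaction) of all genes, against 0, 18, 64 and 0 above. Between the combined exposure and PCB 126 it called 3697 of all genes, against 2589 above. The FPKM filter gave 1 (PCB 126) and 3 (combined exposure against PCB 126) of the 9 genes, 1 (PCB 126) and 9 (combined exposure against Aroclor) of the 98, and 47 (PCB 126) and 636 (combined exposure against Aroclor) of all genes. Of the 8995 genes that this filter kept, 3195 passed between the combined exposure and PCB 126. RLE normalization gave 2 of the 98 and 107 of all genes, no filter 0 and 13, between the combined exposure and Aroclor. With only the groups compared, 2 of the 9 passed with the combined exposure (4183 of all genes) and 2 between it and PCB 126 (2079 of all genes). In these fits 0 of the 98 and 0 of all genes passed between the combined exposure and Aroclor, and 4 of all genes with PCB 126. No such fit exists for the interaction. The cause of these differences was not tested.

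The GC correction gave 1 (combined exposure) and 0 (against PCB 126) of the 9 genes, 15, 0 and 0 of the 98 with the combined exposure and between it and Aroclor and PCB 126, and 1456, 6 and 0 of all genes there, against 5089, 64 and 2589 above, with 48 for PCB 126. Correction for GC and gene length gave 1 and 0 of the 9, 15, 0 and 1 of the 98, and 1502, 4 and 84 of all genes, with 71 for PCB 126.

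The sources used here do not say that a replicate number marks a shared litter, cage or run. Deviations of same-numbered mice from their group means correlated with r from -0.267 to 0.697 over 30 pairs, 12 of them over 0.1, and 9 of 20 libraries were most like their own number in the other groups, so some same-numbered mice deviated together and others did not. With the replicate block, 1 of the 9 genes passed with Aroclor (Ppargc1a, adjusted p = 0.0361), 1 with PCB 126 (Ppargc1a, 0.035), 1 between the combined exposure and Aroclor (Khk, 0.0432) and 3 between it and PCB 126 (Fbp1, Ppargc1a and Khk), with 10 of the 98 against Aroclor, and 26 (Aroclor), 101 (PCB 126), 475 (combined exposure against Aroclor), 3127 (combined exposure against PCB 126) and 38 (interaction) of all genes. The replicate block with GC correction gave 1 and 0 of the 9 genes (combined exposure against HFD control and PCB 126), 21 and 2 of the 98, and 22 (Aroclor), 118 (PCB 126), 1518 (combined exposure), 227 (against PCB 126) and 38 (interaction) of all genes. The numbers were not treated as pairs, so a call gained or lost with the block says nothing of the size of an effect.

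Among the 9 genes, signs changed as follows. In the order GC correction, GC and gene length, and GC correction with replicate block, log2FC with Aroclor became 0.0060, 0.0060 and 0.014 for Pck1, 0.019, 0.069 and 0.019 for Fbp1, -0.013, -0.038 and -0.014 for Pygl and 0.022, 0.063 and 0.041 for Khk. With the combined exposure Gys2 became -0.11, -0.066 and -0.12. Between the combined exposure and Aroclor, Pklr became 0.12, 0.12 and 0.14 and Slc2a2 -0.098, -0.096 and -0.11. Between the combined exposure and PCB 126, G6pc became -0.11, -0.069 and -0.22, and -0.066 with the replicate block alone, and Gys2 became -0.13, -0.091 and -0.13, and -0.00025 with only the groups compared. The interaction of Pklr, -0.0030 above, became 0.12, 0.13 and 0.15, and 0.0031 with DESeq2, 0.039 with the FPKM filter, 0.0033 with RLE and 0.011 with no filter.

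Leaving out 1 mouse at a time gave 0 to 1 of the 9 genes with PCB 126 (1 without PCB 126 replicate 3) and 0 to 2 between the combined exposure and PCB 126 (0 without PCB 126 replicate 3), 0 to 13 and 0 to 33 of the 98 between the combined exposure and Aroclor (13 without combined exposure replicate 3) and PCB 126 (0 without PCB 126 replicate 3), and 0 to 2 (Aroclor), 4 to 127 (PCB 126), 0 to 1036 (combined exposure against Aroclor) and 4 to 3416 (against PCB 126) of all genes. In those fits log2FC with Aroclor ran from -0.067 to 0.032 for Fbp1, from -0.17 to 0.14 for Pck1, from -0.020 to 0.36 for Pklr and from -0.028 to 0.10 for Pygl. With PCB 126 it ran from -0.017 to 0.13 for Gys2, from -0.34 to 0.018 for Pck1, from -0.29 to 0.11 for Pklr and from -0.090 to 0.029 for Pygl. With the combined exposure it ran from -0.013 to 0.15 for Gys2 and from -0.13 to 0.25 for Pklr, against Aroclor from -0.22 to 0.012 for Pklr, and against PCB 126 from -0.11 to 0.21 for G6pc and from -0.055 to 0.079 for Gys2. The interaction ran from -0.35 to 0.00078 for Pck1 and from -0.22 to 0.18 for Pklr. Every library held at least 104 counts of each of the 9 genes. Their intervals include counting error and the spread between mice. Counting error weighs most for Ppargc1a, with 104 to 339 counts per library. The GC slopes of the combined exposure did not overlap those of HFD control, so slope and combined exposure cannot be told apart here. The slopes with Aroclor (-0.105 to 0.138) and with PCB 126 (-0.0937 to 0.382) overlapped those of HFD control (-0.00203 to 0.470).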

Other observations

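Genes that respond to fasting were read beside the 9 genes, since all mice were fasted before the livers were taken. They were Igfbp1, Cpt1a, Angptl4, Fgf21 and Acot1. Of all genes, 0% passed edgeR's test against HFD control with Aroclor, 0.116% with PCB 126 and 32.8% with the combined exposure. None of the 5 passed edgeR's test against HFD control with Aroclor (1 at an unadjusted p under 0.05), PCB 126 (0) or the combined exposure (1), and DESeq2 called 0, 0 and 1. Each of these was Angptl4, an inhibitor of lipoprotein lipase, with a log2FC of -0.70 with Aroclor (adjusted p = 0.195 in edgeR) and -0.52 with the combined exposure (adjusted p = 0.0648). Cpt1a, which carries fatty acids into mitochondria, was at 0.13 with the combined exposure, Igfbp1 at -0.04, Fgf21 at -0.15 and Acot1 at 0.17.

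Periportal hepatocytes hold more of the gluconeogenic enzymes and pericentral hepatocytes more of the glycolytic ones, so markers of both zones were read as well. The 6 periportal markers summed to 3329 to 5691 CPM in HFD control and 4262 to 5346 CPM with the combined exposure, and the 6 pericentral markers to 20976 to 26080 and 22333 to 28836 CPM. With the combined exposure, edgeR before GC correction called 1 of the 6 periportal markers higher (Hsd17b13) and 1 lower (Ass1). It called 2 of the 6 pericentral markers higher (Slc1a2 and Lgr5), beside 32.8% of all genes in either direction. After correction none of these 4 passed, and Oat, another pericentral marker, was lower, beside 9.38% of all genes. Counts this small do not set either zone apart from the whole table.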
